A study of Oryza sativa with 81 samples.

Results

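The members described here are 640 rice gene models, the last 20% in sorted order of the 3197 models whose identifiers begin with OsR498G06 (block 06), out of 38714 models in the count table. They run from OsR498G0613040400.01, at rank 2558 of the block, to OsR498G0613351300.01, at rank 3197. The stretch was chosen by measured values: the adjusted p-values and fold changes of the line WFB against the line RFB in these same libraries, which gave many calls near both ends of block 06. The WFB against RFB values below are therefore a description, and nothing is read from them. None of the identifiers matched the gene name table used here (39387 genes), so no gene names or functions can be given, and no sequence of these models was at hand.

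The study profiled total RNA of rice (Oryza sativa) from field-grown plants of 9 lines at 3 stages: young seedlings, young panicles, and panicles during filling. The 4 parental lines were R998, R308, WFB and RFB, and the 5 F1 hybrids were WY998 (WFB crossed with R998), WY308 (WFB with R308), RY998 (RFB with R998), RY308 (RFB with R308) and WR (WFB with RFB). Each line and tissue had 3 libraries, with numbers 1 to 3 (young seedlings), 4 to 6 (young panicles) or 7 to 9 (filling panicles). No treatment or introduced allele is given in the labels. The labels do not say whether the libraries of a group came from separate plants, so p-values measure only the spread between these libraries, which may be technical. What the letters of the line names stand for, and how WFB and RFB are related, is not given in the sources used here.

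An F1 hybrid carries a chromosome set from each of its inbred parents. Where parents differ in a gene through that gene's own copy, a hybrid is commonly found between them, and where the parents are alike its hybrids with a common partner are commonly alike. Comparing WFB crosses with RFB crosses to the same partner lines therefore takes the parental comparison to libraries other than those of WFB and RFB. All libraries of a tissue shared the model and spread estimate behind the parental calls, so the hybrid comparison is not an independent repeat. Levels in a hybrid above or below both parents are of interest in breeding, but hybrid vigour itself was not measured in these data.

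Of the 640 members, young seedlings had 414 that passed the filter on low counts, young panicles 472 and filling panicles 479. A total of 400 passed in every tissue, 500 in at least 1 and 140 in none, and 2 had no count in any library, as had 452 of all models. Library totals were 29054241 to 45765805 counts. The members' share of all counts was 1.02% ± 0.0747 (SD, n = 27) for young seedlings, 2.41% ± 0.0763 for young panicles and 2.53% ± 0.104 for filling panicles. These are shares of raw totals and depend on the other genes of a library. Library sizes after TMM scaling lay below the totals in young seedlings and above them in young panicles. In filling panicles OsR498G0613332800.01 alone held 7433857 counts over the 27 libraries. A mean of at least 1 CPM (counts scaled to a common library size) was reached by 363, 393 and 396 members in the same order. Some libraries stood apart and touch results below. In young panicles WY998 library 6, and to a lesser degree R998 library 4, had counts on OsR498G0613162800.01, which the other libraries of both lines lacked. In filling panicles R308 library 9 had counts on 37377 models and RY308 library 8 on 34375, where the median library had 27709. Tissue samples are bulk, so fewer cells of a type and less RNA per cell cannot be told apart.

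The stretch held genes of very different abundance and tissue. In deposited FPKM (a level per gene length, by which genes can be compared), OsR498G0613336700.01 was the most abundant member of young seedlings at 657 ± 53.1 FPKM and of young panicles at 943 ± 378, and the second of filling panicles at 916 ± 190 (SD, n = 27 each). OsR498G0613332800.01 stood at 23.8 ± 2.17 FPKM in young seedlings and 32.4 ± 2.40 in young panicles, and led in filling panicles at 2583 ± 396. In TMM-scaled CPM the seedlings were instead above the young panicles for both genes. Young seedlings had a mean of 110 CPM of OsR498G0613332800.01, where young panicles had 71.8. For OsR498G0613336700.01 the seedling mean was 1069 CPM, against 725 for young panicles and 865 for filling panicles. The order of these tissues thus depends on the scaling. OsR498G0613240400.01 was a young panicle gene, at 752 ± 155 FPKM there against 11.7 ± 5.55 in young seedlings and 71.7 ± 26.8 in filling panicles. OsR498G0613145400.01 showed the reverse, with 415 ± 72.6 FPKM in young seedlings and 44.3 ± 4.70 in young panicles.

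Tissues were compared as the mean over the 9 lines, and a gene was called where the Benjamini-Hochberg adjusted p of edgeR's quasi-likelihood test was under 0.05 and the change at least 2-fold. Of 501 members tested, 262 (52.3%) were called between young panicles and young seedlings, where 52.5% of all tested genes were. Of these 164 were higher in young panicles and 98 lower. Between filling panicles and young seedlings 260 members (51.9%) were called, 162 of them higher in filling panicles, against 51.2% of all genes. Between the panicle stages 220 members (43.9%) were called, 95 of them higher in filling panicles, against 41.4%. These shares lay close to those of all tested genes.

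The members with the largest tissue differences were present in 1 organ and nearly lacking in another in all lines. OsR498G0613079500.01 ran from 105 to 217 CPM in the 27 young panicle libraries (median 159), from 2.46 to 32.4 in filling panicles (median 6.33), and had 2 counts in all young seedling libraries together. Its young panicle to young seedling ratio was 50207 (95% counting interval 13899 to 414576). OsR498G0613290700.01 had a median of 123 CPM in young panicles (81.7 to 183) and of 0 in young seedlings (0 to 0.0969), a log2 change of 13.13 ± 0.18 (SE), adjusted p = 3.0e-53 by edgeR. Both were called down again by filling, where OsR498G0613290700.01 had a median of 4.03 CPM. In the other direction OsR498G0613180100.01 fell from a median of 25.1 CPM in young seedlings (14.5 to 34.7) to 0.0655 in young panicles (0 to 0.272), with a log2 change of -8.58 ± 0.17. OsR498G0613163900.01 fell from a median of 15.7 CPM to 0.0626, with a log2 change of -8.40 ± 0.16. The libraries of the compared tissues did not overlap for any of these 4 genes.

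Filling panicles had their own high genes. OsR498G0613332800.01 rose from a median of 72.3 CPM in young panicles (61.1 to 80.4) to 7429.6 in filling panicles (3420 to 10608), a log2 change of 6.62 ± 0.07. OsR498G0613213400.01 rose from a median of 0.0226 CPM (0 to 1.13) to 22.4 (9.81 to 126), a log2 change of 9.41 ± 0.36. OsR498G0613104200.01 fell from a median of 15.3 CPM (12.4 to 19.3) to 0.151 (0 to 0.472), a log2 change of -6.54 ± 0.13. Each of these had an adjusted p of at most 8.7e-32 in edgeR's test. In each the 27 libraries of one stage lay apart from the 27 of the other.

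WFB and RFB, the lines whose contrast chose the stretch, differed in 41 of 414 tested members (9.90%) in young seedlings, beside 1.8% of all tested genes. In young panicles 155 of 472 members (32.8%) were called beside 21.5% (100 without RFB library 5), and in filling panicles 22 of 479 (4.59%) beside 0.71%. WFB was the higher line in 15, 81 and 7 of them. At the lower border, OsR498G0613040400.01, just inside, had 0.298 ± 0.106 CPM in WFB and 0.499 ± 0.0677 in RFB young panicles, and OsR498G0613039900.01, just outside, 0.335 ± 0.0971 and 2.33 ± 0.558 (SD, n = 3 each). In all 3 tissues 11 members were called with 1 sign, of 400 tested throughout, beside 83 of 20594 genes (0.403%). WFB was higher in 4 of the 11 and lower in 7, and they were spread over 7 of the 16 consecutive bins of 40 identifiers, from bin 3 to bin 15.

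**Figure D1:**
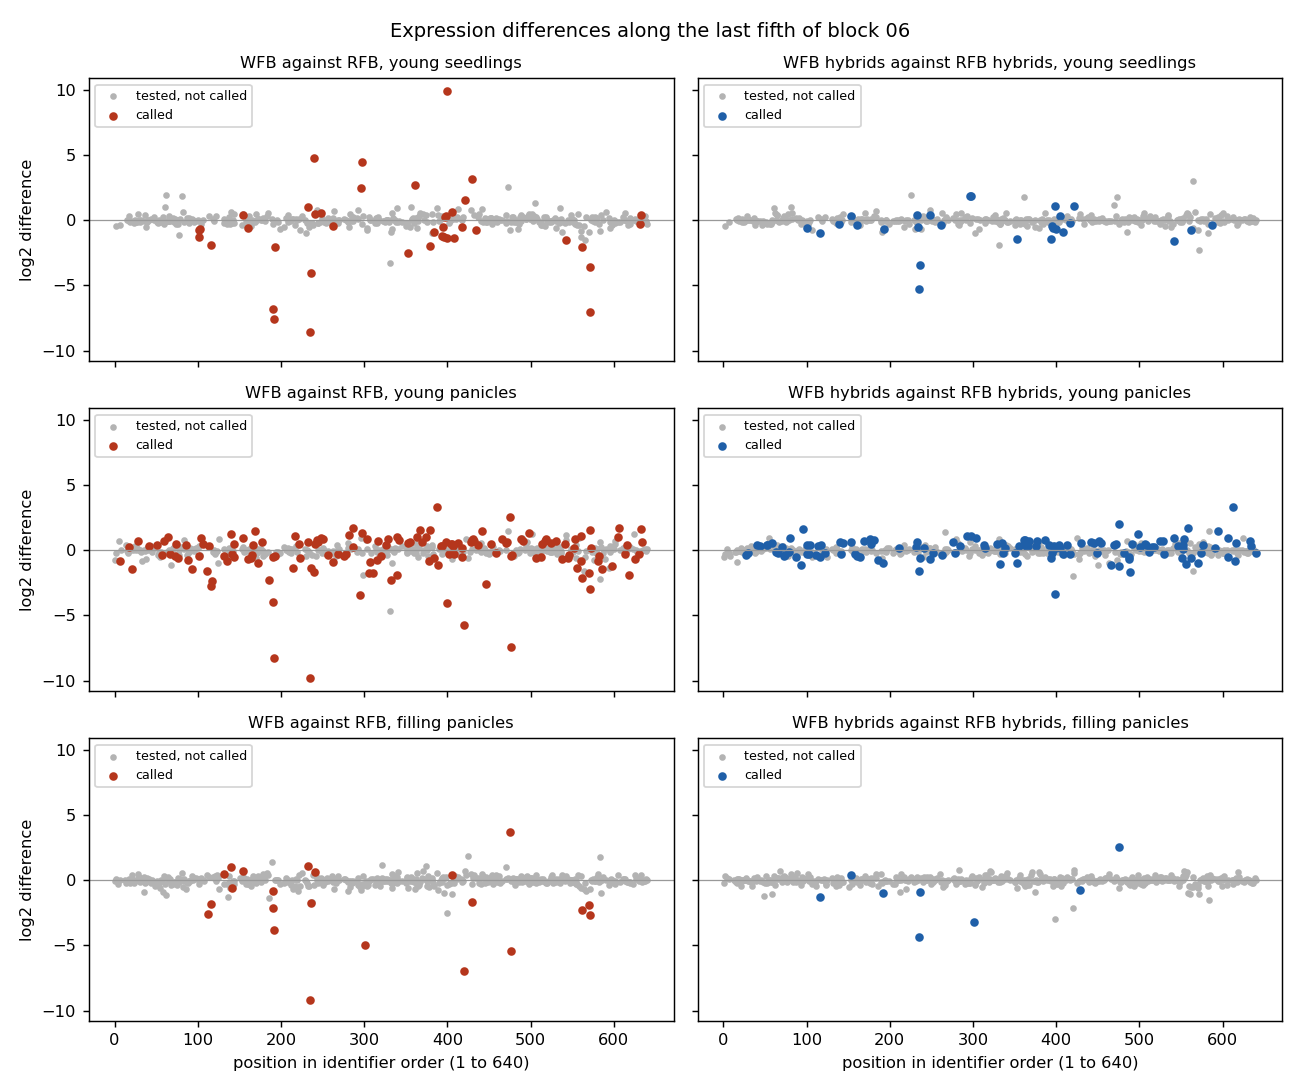
Fitted log2 differences of all tested members by their position in identifier order (1 to 640), for WFB against RFB (left) and for the average of the WFB hybrids against that of the RFB hybrids (right), in 3 tissues; coloured points have an adjusted p under 0.05. In young seedlings and filling panicles no parental call lies in positions 1 to 100 or 477 to 541, while in young panicles calls lie along the whole order; log2 values of members with no counts in 1 group depend on the fitting and are no bounds.

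Positions of the calls along the identifier order are given as a description. In young seedlings and filling panicles together 51 members were called between WFB and RFB, at positions 101 to 633 within the 640. None of the first 100 members was among them, of which 63 were tested in young seedlings and 76 in filling panicles. A second gap of 65 members ran from position 477 to 541, with 54 and 59 tested. Both gaps, and the remainder from position 101 to 633, were cut at these calls, so nothing is read from the parental counts in them. Whether gaps of this length differ from an even spread of calls was not tested. The hybrid average also had no call in either gap in young seedlings or filling panicles, the latter with 8 calls among all members. Its libraries are not those of the parents, but they share the model and spread estimate that gave the parental calls. Over all tested genes this average called 2.14% in young seedlings and 0.363% in filling panicles. At such shares few or no calls would fall in a gap of this size. The single pairs did have calls there in filling panicles: WY998 against RY998 in 8 of 76 tested members (10.5%) of the first gap and 10 of 59 (16.9%) of the second, and WY308 against RY308 in 8 (10.5%) and 15 (25.4%). Elsewhere from position 101 to 633 these pairs called 11.5% and 18.9%. In young seedlings neither pair had a call in the gaps. In the remainder of the stretch from 101 to 633 that average called 27 of 291 tested members (9.28%) in young seedlings and 8 of 338 (2.37%) in filling panicles. In young panicles the hybrid average called 18 of 73 tested members (24.7%) among the first 100 and 15 of 57 (26.3%) in the second gap, beside 96 of 336 (28.6%) elsewhere. The parents called 16 of 73 (21.9%) and 14 of 57 (24.6%) there, beside 124 of 336 (36.9%) elsewhere. Over all tested genes 20.1% were called in the hybrid average and 21.5% between the parents. At such shares a gap without any call would be unlikely, so the tissues cannot be compared by their gaps. The densest bin in young seedlings was the tenth, positions 361 to 400, with 10 parental and 5 hybrid calls among its 40 members. It was picked from the 16 bins by its calls, so nothing is read from it. Over all tested genes 1.8% were called between the parents and 2.14% between the hybrids.

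The hybrids of WFB were compared with the hybrids of RFB as the mean of WY998 and WY308 against the mean of RY998 and RY308. In young seedlings 27 of 414 members (6.52%) were called, against 2.14% of all tested genes, 8 higher and 19 lower in the WFB hybrids. In young panicles 131 of 472 (27.8%) were called against 20.1%, 79 higher and 52 lower. In filling panicles 8 of 479 (1.67%) were called against 0.363%, 2 higher and 6 lower. The median log2 difference of the tested members was -0.00027, 0.0062 and 0.017, and that of all tested genes 0.0057, -0.0020 and 0.012. Leaving out WY998 library 8 or RY998 library 8 left 5 calls in filling panicles. When each of the 12 numbered blocks was cut into 5 equal stretches by identifier, giving 60, the members' stretch had the second largest share in each tissue. The first stretch of block 06 came before it, with 11.8%, 30.6% and 5.80%. The fourth stretch, next to the members, had 5.17%, 26.7% and 1.30%, in young seedlings also above every stretch of other blocks. The largest shares in the 55 stretches of other blocks were 4.22%, 27.7% and 1.57%. The order was not computed again with libraries left out, and in young panicles and filling panicles the lead is smaller than the change of the members' count when 1 library is left out (down to 103 without RY308 library 4, and to 5 in filling panicles).

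**Figure D2:**
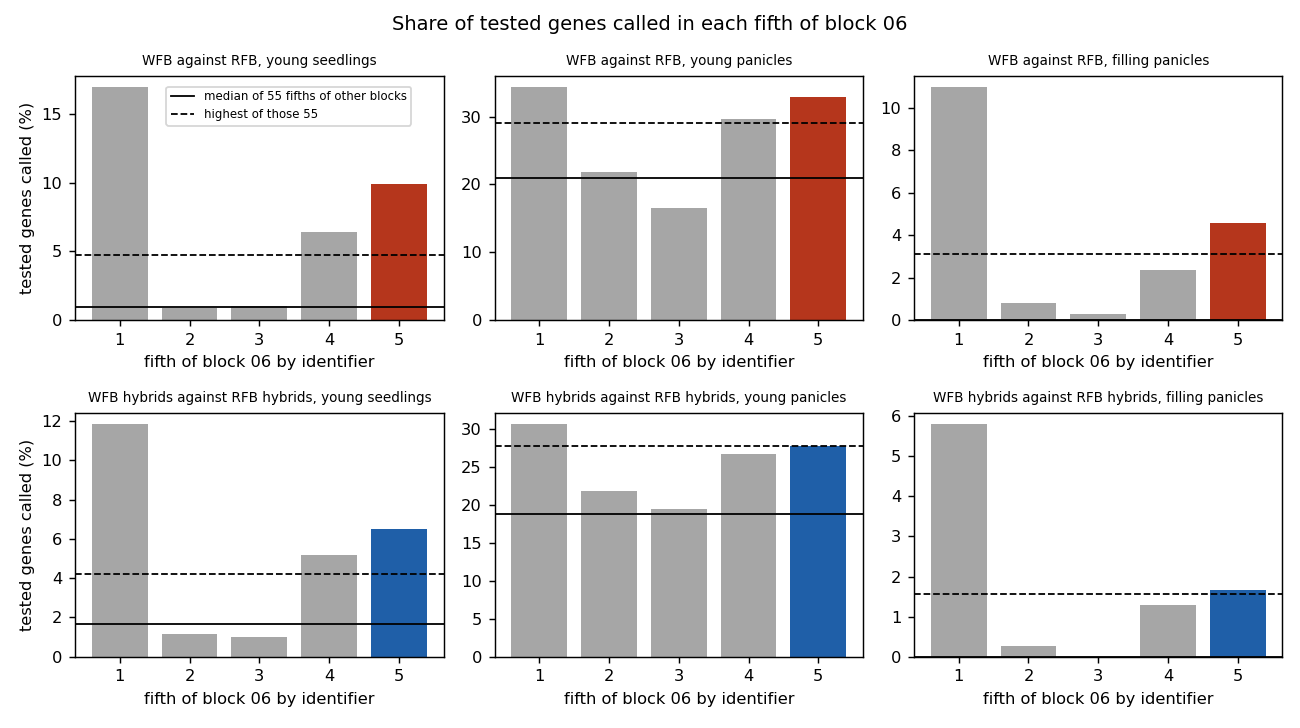
Share of tested genes called (adjusted p under 0.05, in percent, bars from 0) in each of 5 equal stretches of block 06 by identifier, for WFB against RFB (top) and the WFB hybrids against the RFB hybrids (bottom); lines give the median and the highest share among the 55 such stretches of the other blocks. In the hybrids the last stretch stands at 6.52%, 27.8% and 1.67%, below the first and above the highest of the other blocks. The fourth stretch stands above that highest share in young seedlings only, at 5.17%.

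Most members that differed between WFB and RFB kept their direction in the hybrid average. Of the 41 called in young seedlings 40 had the parental sign in the hybrid average, 24 of them called. The same held for 131 of 155 in young panicles, where 66 were called, 60 of these with the parental sign. In filling panicles all 22 had the parental sign and 8 were called. Genes outside the stretch behaved alike in that average: 342 of 352, 4135 of 5175 and 153 of 158 kept the sign. Of members not called between the parents, 65.4%, 59.3% and 59.1% had the parental sign in it. By single pairs, WY998 against RY998 kept the sign in 40, 133 and 18 of the called members. WY308 against RY308 kept it in 40, 117 and 21. The parental sizes chose these members and are therefore not compared with the hybrid sizes, which are given beside them as values. In young seedlings the median parental difference of the called members was a log2 of 1.38, and their median hybrid difference in the parental direction was 0.60. In young panicles these medians were 0.72 and 0.24, and in filling panicles 1.85 and 0.48. All 11 members with 1 parental sign throughout had it in the hybrid average in every tissue. The 4 of them called in the hybrids in all tissues (1% of 400, beside 0.204% of all genes) were singled out after their values were seen: OsR498G0613117300.01, higher in WFB hybrids, and OsR498G0613100500.01, OsR498G0613162800.01 and OsR498G0613163400.01, lower. For OsR498G0613100500.01 the hybrid adjusted p by edgeR was 0.039 in young seedlings and 0.048 in young panicles. Neither single pair was called for it in these tissues, and its hybrid means in young panicles were 0.543 to 0.947 CPM.

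**Figure D3:**
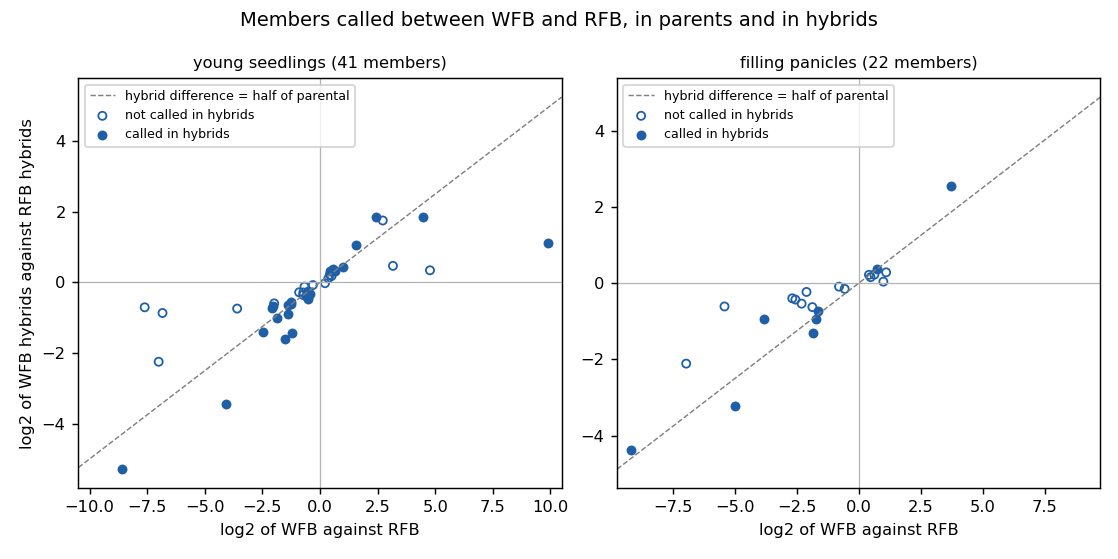
Fitted log2 difference of the WFB hybrids against the RFB hybrids (vertical) by that of WFB against RFB (horizontal) for the 41 and 22 members called between the parents in young seedlings and filling panicles; filled points are called in the hybrids and the dashed line marks a hybrid difference of 0.5 times the parental one. In young seedlings 40 of 41 points, and in filling panicles 22 of 22, lie in the quadrants of equal sign. Parental values chose these points, so nothing is read from their distance to the dashed line.

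OsR498G0613162800.01, at position 235, followed the pedigree in nearly every library. In young seedlings RFB had 8.58, 8.19 and 7.49 CPM and R308 had 7.48, 9.06 and 9.50, while WFB had 0, 0.0447 and 0 and R998 had no count. WY998, the cross of the lines that lacked it, had no count either. RY308, the cross of the lines that had it, held 7.75, 8.57 and 8.16 CPM. Crosses of a line with it and one without it lay between: WY308 had 3.66, 3.66 and 3.98, RY998 3.59, 4.51 and 3.32, and WR 3.78, 3.26 and 3.31. The groups without it, the intermediate crosses and the lines with it did not overlap. Against the mean of their parents WY308 stood at 0.867, RY998 at 0.941, RY308 at 0.973 and WR at 0.851 times. RFB exceeded WFB by a ratio of 525 (95% counting interval 93.9 to 20785), R308 was at least 175-fold above R998 and RY998 at least 93.4-fold above WY998, with the floor for a group at 0 set at 3 counts over its libraries.

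In filling panicles the order was the same. RFB had 6.15, 6.99 and 6.09 CPM, R308 5.02, 6.06 and 5.96, and RY308 6.42, 7.19 and 7.15. WY308 had 2.85, 2.56 and 2.40, RY998 3.27, 2.92 and 3.42, and WR 2.69, 3.86 and 3.44, and the libraries of WFB, R998 and WY998 were at most 0.0343 CPM. The 3 tiers again did not overlap. The WFB hybrids were below the RFB hybrids by a log2 of -4.39 ± 0.22 (edgeR, adjusted p = 2.2e-11), the 1 member of this comparison whose 6 and 6 libraries did not overlap and which reached 5 CPM. The ratio of R308 to R998 was 341 (93.9 to 2818 by counting).

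Young panicles held the exceptions. RFB had 7.25, 7.80 and 8.14 CPM in libraries 4 to 6, RY308 7.53, 8.50 and 6.66, and WY308 3.12, 3.12 and 3.23, but WY998 had 0, 0 and 2.72 and R998 0.568, 0 and 0. WY998 library 6 thus stood near the level of WY308, although both of its parents had libraries at 0. With all libraries the WFB hybrids differed from the RFB hybrids by a log2 of -1.58 (edgeR, adjusted p = 0.034), and without WY998 library 6 by -5.83 (adjusted p = 1.5e-06). The difference of WY998 from RY998 was not called with that library (-1.91, adjusted p = 0.65) and was called without it (-10.42, adjusted p = 7.6e-05). Without R998 library 4 the hybrid difference was -1.58. The number of members called between the WFB and RFB hybrids in young panicles was 114 without WY998 library 6 and 131 with it.

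**Figure D4:**
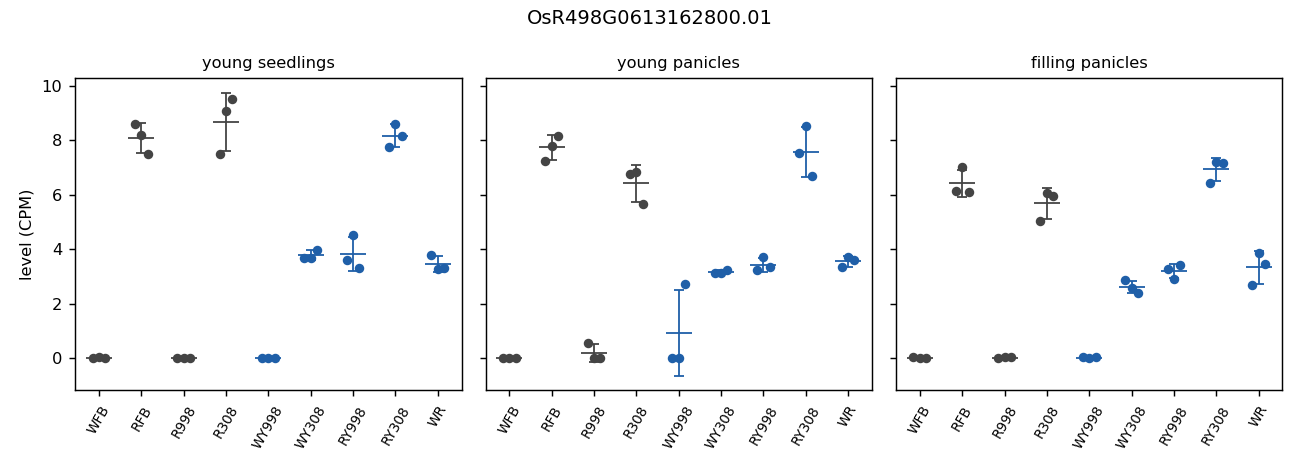
Levels of OsR498G0613162800.01 in CPM (linear axis from below 0 to show the error bars) in each library (points) of 9 lines in 3 tissues, with the mean and SD of 3 libraries; parents in grey, hybrids in blue. WFB, R998 and WY998 lie near 0, WY308, RY998 and WR between 2.40 and 4.51, and RFB, R308 and RY308 above 5, apart from WY998 library 6 in young panicles at 2.72.

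OsR498G0613201200.01, at position 301, was the other member with at most 3 counts over all libraries of a parent and at least 1 CPM in another. It had 2 counts in WFB and none in R998, against 65 in RFB and 169 in R308. WY998 had 1 count over its 9 libraries, WY308 51, RY998 38, RY308 49 and WR 19. The rule found 2 such members among 447 expressed ones, beside 447 of 23897 over all genes.

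Other members separated the hybrids of WFB from those of RFB. OsR498G0613306500.01 in young seedlings had 27.1, 35.8 and 31.4 CPM in RFB and 8.97, 9.30 and 14 in WFB. RY998 stood at 53.6, 59.8 and 61.2 and RY308 at 29.1, 29.1 and 32.4, while WY998 had 12.7, 14 and 12.2 and WY308 11.4, 20.8 and 11.9. All 6 libraries of RFB hybrids lay above all 6 of WFB hybrids, a log2 of -1.60 ± 0.17 (edgeR, adjusted p = 1.9e-06). In young panicles the hybrid difference had the opposite sign, 0.95 ± 0.28 (adjusted p = 0.021), at line means of 0.978 to 3.39 CPM. OsR498G0613251700.01 in young seedlings had a narrower and even spread: RY998 11.8, 10.6 and 12.7 CPM and RY308 13.4, 12.1 and 10.7, against WY998 6.86, 6.93 and 5.12 and WY308 5.90, 6.74 and 6.81. Its difference was -0.89 ± 0.12 (adjusted p = 7.5e-05), with WR at 12.6, 10.8 and 11.1.

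OsR498G0613248700.01 was nearly lacking in RFB young seedlings, at 31.8, 33.1 and 32.8 CPM in WFB and 0, 0.0969 and 0 in RFB. R998 had 9.46, 4.59 and 19.6 and R308 23.2, 16.0 and 21.2. The crosses of RFB held it at 11.5, 5.08 and 9.51 (RY998) and 10.1, 9.27 and 8.34 (RY308), and the crosses of WFB at 13.6, 17.5 and 25.9 (WY998) and 22.6, 17.2 and 19.9 (WY308). The WFB hybrids were higher by a log2 of 1.11 ± 0.25 (edgeR, adjusted p = 0.014). In the panicle stages no library exceeded 0.529 CPM, and in young panicles the WFB hybrids were lower, by -3.39 ± 0.73 (adjusted p = 0.0019). OsR498G0613117300.01 differed by less but in all tissues. Its young panicle values were 31.4, 33.6 and 35.0 CPM in WY998 and 36.3, 33.0 and 29.5 in WY308, above 21.2, 24.1 and 21.5 in RY998 and 19.7, 20.9 and 24.2 in RY308, a log2 of 0.60 ± 0.07 (adjusted p = 8.3e-07). In young seedlings its hybrid difference was 0.31 ± 0.08 (adjusted p = 0.039), which was above 0.05 (up to 0.14) without any 1 of 12 libraries, namely RFB library 3, R308 library 3, WY998 libraries 1 to 3, WY308 libraries 1 and 2, RY998 libraries 1 to 3 and RY308 libraries 1 and 3. It was also above 0.05 with the replicate block (0.053) and in the unfiltered table (0.056).

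OsR498G0613279800.01 was the clearest of the young panicle genes. WFB had 10.6, 10.04 and 10.4 CPM, RFB 1.59, 1.49 and 1.97, R998 1.57, 1.52 and 1.24 and R308 1.24, 0.923 and 1.39. WY998 had 6.16, 5.85 and 5.31, WY308 7.19, 6.15 and 5.70 and WR 6.78, 7.28 and 6.61, and the crosses without WFB stayed at 0.924 to 2.52. All crosses of WFB lay between WFB and the other lines, with no overlap. The hybrid difference was a log2 of 2.03 ± 0.12 (edgeR, adjusted p = 3.4e-11). It was also called in filling panicles, at 2.56 ± 0.23 (adjusted p = 4.2e-07), where WFB had 4.23 ± 0.587 CPM and RFB 0.316 ± 0.0158. In young seedlings, with line means of 2.39 to 4.32 CPM, the hybrid difference was -0.28 ± 0.14 (adjusted p = 0.42).

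The crosses to R998 and to R308 did not give the same picture. WY998 and RY998 differed in 15 members (3.62%) in young seedlings against 1.27% of all genes, in 6 (1.27%) in young panicles against 0.384%, and in 57 (11.9%) in filling panicles against 10%. WY308 and RY308 differed in 6 (1.45%) against 0.431%, in 163 (34.5%) against 28.3% and in 88 (18.4%) against 14.4%. The young panicle calls of the average thus came with a large difference of WY308 from RY308 over the whole table. The test of the difference between the pairs called 2 members in young seedlings (background 0.0917%), 61 in young panicles (10.4%) and 109 in filling panicles (21.8%). In filling panicles 42 members were called in both pairs, 38 of them with opposite signs (7.93% of tested members, beside 6.6% of all genes) and 4 with the same sign (0.835%, beside 0.174%). In young seedlings and young panicles 5 members each were called in both pairs with the same sign (1.21% beside 0.225%, and 1.059% beside 0.295%), and none with opposite signs. Without R308 library 9 and RY308 library 8 together, filling panicles had 66 members called between WY308 and RY308, 8 between the WFB and RFB hybrids, 68 between R998 and R308 and 36 beyond both parents. Without RY998 library 2 or library 3 the young seedling count of WY998 against RY998 was 9 or 8.

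OsR498G0613338800.01 showed how the pairs split. In young panicles it had 74.7, 76.7 and 73.0 CPM in R998 and 73.6, 73.7 and 68.4 in R308, but 0.563, 0.593 and 0.856 in WFB and 0.753, 0.784 and 0.656 in RFB. WY998 (63.4, 70.6 and 68.0), WY308 (72.4, 76.5 and 61.9) and RY998 (65.3, 71.9 and 67.1) were near the levels of R998 and R308, whereas RY308 (0.576, 0.940 and 0.622) and WR (0.672, 0.515 and 0.984) were near those of WFB and RFB. No library lay between. WFB and RFB together were below R998 and R308 by a log2 of -6.69 ± 0.12 (edgeR, adjusted p = 1.0e-21), and RY308 was below its parent R308 by -6.67 ± 0.17 (adjusted p = 1.9e-18) and did not differ detectably from RFB (-0.09 ± 0.21, adjusted p = 0.82). In filling panicles the high lines were R308 (23.3, 29.4 and 28.9 CPM), WY308 (20.3, 37.9 and 50.4) and RY998 (45.2, 34.4 and 35.3), and R998 had 2.11, 2.60 and 8.74. RY998 there exceeded both of its parents, by 3.14 ± 0.42 over R998 (adjusted p = 1.2e-05). In young seedlings all lines expressed it, from 3.77 CPM in an RY998 library to 19.5 in a WFB library.

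**Figure D5:**
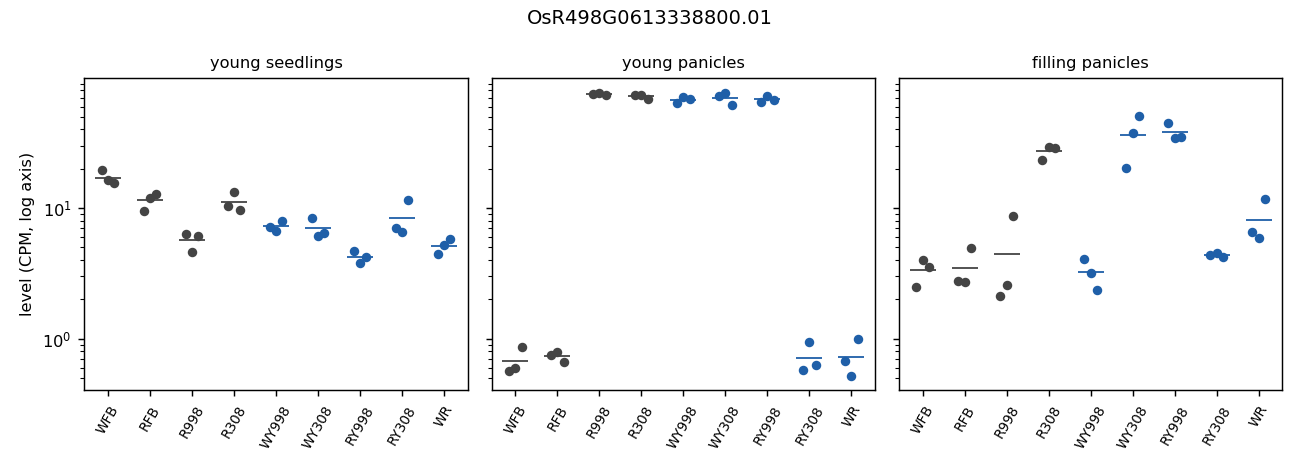
Levels of OsR498G0613338800.01 in CPM (logarithmic axis) in each library (points; horizontal bars are means of 3 libraries) of 9 lines in 3 tissues, parents in grey and hybrids in blue. In young panicles the lines fall into a low set (WFB, RFB, RY308 and WR, all under 1 CPM) and a high set (all others, above 60 CPM), and in filling panicles R308, WY308 and RY998 stand above the rest.

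The same line sets recurred in other members. In young panicles OsR498G0613085400.01 had 23.3, 24.7 and 20.2 CPM in R998 and 32.1, 30.6 and 25.2 in R308, with WY998, WY308 and RY998 between 16.9 and 30.8, while WFB, RFB, RY308 and WR lay between 3.45 and 5.27. OsR498G0613226800.01 was the reverse there, at 28.6 ± 1.80 CPM in WFB, 19.4 ± 2.89 in RFB and 27.8 ± 3.13 in RY308, against 2.90 ± 0.65 in R998 and 5.72 ± 0.452 in R308. In filling panicles OsR498G0613302100.01 was low in R308 (6.39, 8.68 and 6.68 CPM), WY308 (9.51, 7.5 and 7.17) and RY998 (7.57, 8.56 and 6.98), and between 24.5 and 51.3 in all libraries of the other lines. RY998 thus lay below both of its parents, RFB and R998, by a log2 of -1.87 against R998, the nearer (edgeR, adjusted p = 2.4e-08). The labels of the libraries were used as given, and which property of the plants or libraries these line sets share was not tested.

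WR, the cross of WFB and RFB, was placed on a scale from 0 (RFB) to 1 (WFB). For the members called between these parents the median position was 0.506 in young seedlings, with 31 of 41 between the parents, and 0.472 in filling panicles, with 21 of 22 between them. In young panicles it was -0.0335, with 72 of 155 between the parents and 130 nearer to RFB. The other genes called there had a median of -0.118, with 1779 of 5175 between. No test was made, since WFB and RFB enter both the choice and the scale.

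WFB and RFB together were set against R998 and R308, a contrast that also uses the libraries by which the stretch was chosen. In young seedlings 70 of 414 members (16.9%) were called against 26.8% of all genes, 29 higher and 41 lower in WFB and RFB, which put the stretch at position 59 of 60. In young panicles 221 (46.8%) were called against 50%, position 47, and in filling panicles 159 (33.2%) against 38.8%, position 55. The young panicle share was close to that of all genes. Low shares were not particular to the members: the first stretch of block 06 had 19.7%, 45.9% and 32.1%. The lowest shares among the 55 stretches of other blocks were 15.3%, 42.25% and 28.8%. OsR498G0613307600.01 in young seedlings had 153 to 187 CPM in the 6 libraries of WFB and RFB (mean 171) and 267 to 367 in those of R998 and R308 (mean 328), with no overlap and a log2 of -0.94 ± 0.10 (edgeR, adjusted p = 4.9e-08). Its hybrids with these lines had means of 195 to 214 CPM. OsR498G0613332100.01 in filling panicles had 3.77, 4.38 and 3.70 CPM in WFB and 4.32, 5.14 and 5.98 in RFB, against 14.1, 16.1 and 14.4 in R998 and 20.4, 17.2 and 14.3 in R308. Its 4 hybrids between these groups had means of 7.33 to 11.7 CPM, with all libraries between the parental groups. The difference was -1.84 ± 0.10 (adjusted p = 2.2e-12).

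R998 and R308 differed in 55 members (13.3%) in young seedlings against 15.3% of all genes, 27 higher in R998. In young panicles they differed in 123 (26.1%) against 26.1%, and in filling panicles in 96 (20.04%) against 22%, so the members were close to the whole table. Leaving out R308 library 2 left 33 calls in young seedlings, and leaving out R998 library 7 left 58 in filling panicles. OsR498G0613200500.01 in young seedlings had 16.1, 15.7 and 16.8 CPM in R998 and 3.01, 1.41 and 1.33 in R308, a log2 of 3.12 ± 0.27 (edgeR, adjusted p = 5.9e-09). WFB resembled R998 (17.3, 12.6 and 17.2) and RFB resembled R308 (0.554, 1.11 and 0.520). WY998, with a high parent on each side, had 15.7, 21.0 and 15.9 CPM, WY308 11.8, 9.73 and 11.9, RY998 9.80, 10.3 and 11.1, WR 8.94, 11.2 and 8.09, and RY308, with none, 1.58, 0.775 and 1.94. The crosses thus lay in 3 tiers without overlap, as for OsR498G0613162800.01 and with the high and low lines exchanged.

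That division of the parents was counted over the members called between WFB and RFB. R998 lay on the WFB side and R308 on the RFB side of the WFB to RFB midpoint for 11 of 41 members (26.8%) in young seedlings, where the other genes called between WFB and RFB gave 28.4%. It did so for 17 of 155 (11.0%) in young panicles beside 5.35% of those other genes, and for 10 of 22 (45.5%) in filling panicles beside 39.9%. The exchanged division was found for 3, 41 and 1. In filling panicles the other 11 members had both R998 and R308 on the RFB side and none had both on the WFB side, where 45 of 158 other genes (28.5%) had both on the RFB side and 38 (24.1%) both on the WFB side. In young seedlings 12 members (29.3%) had both on the RFB side and 15 (36.6%) both on the WFB side, beside 32.7% and 30.1% of the other genes. Of these members 11 (26.8%), 72 (46.5%) and 9 (40.9%) were also called between R998 and R308, beside 40.9%, 42.3% and 51.3% of the other genes. They had the sign of WFB against RFB in 10, 17 and 8 cases. The difference of WFB from RFB chose the members, and no test was made.

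The hybrids of R998 were set against the hybrids of R308 as the mean of WY998 and RY998 against that of WY308 and RY308. In young seedlings 22 members (5.31%) were called against 7.55% of all genes, in young panicles 98 (20.8%) against 21.6% and in filling panicles 34 (7.10%) against 10.6%. The young seedling count was 13 without RY998 library 2 and 14 without WY308 library 3, and the filling panicle count fell to between 18 and 22 when WY998 library 7, RY998 library 7, 8 or 9, or RY308 library 8 was left out. OsR498G0613329300.01 in filling panicles had 9.58, 10.4 and 11.7 CPM in WY998 and 8.53, 9.16 and 9.11 in RY998, against 5.40, 4.26 and 5.32 in WY308 and 5.26, 4.38 and 4.94 in RY308. The groups did not overlap, and the log2 difference was 0.98 ± 0.10 (edgeR, adjusted p = 3.0e-07). OsR498G0613074600.01 had the opposite direction, with 8.06 ± 1.65 CPM in the R998 hybrids and 15.6 ± 2.50 in the R308 hybrids (SD, n = 6), a log2 of -0.97 ± 0.12 (adjusted p = 3.4e-06).

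Levels beyond both parents were called where a hybrid differed from each parent with 1 sign. In at least 1 hybrid this held for 22 members (5.31%) in young seedlings against 7.1% of all genes, for 52 (11.0%) in young panicles against 10.1% and for 45 (9.39%) in filling panicles against 6.87%. They lay above the parents in 10, 28 and 19 members and below in 12, 24 and 27, 1 member of filling panicles being above in one hybrid and below in another. In young seedlings 21 of the 22 were found in WR (background 6.03%), 6 in RY998 (1.81%), 1 in WY308 (0.293%) and 0 in WY998 (0.289%) and RY308 (1.1%). In young panicles 33 were found in RY998 (5.25%), 13 in WY998 (2.93%), 10 in RY308 (2.76%), 2 in WR (0.509%) and 0 in WY308 (0.21%). In filling panicles 38 were found in RY998 (6.16%), 8 in RY308 (0.529%) and 0 in WY998 (0.0947%), WY308 (0.296%) and WR (0.0908%). In filling panicles the share of RY308 was 1.67% of members and that of RY998 7.93%, and in young panicles that of RY998 was 6.99%. The filling panicle count was 22 to 27 without any 1 of the RY998 libraries, without RFB library 8 or 9 or without R998 library 7. In young seedlings it was 14 and 13 without RFB library 1 and 3, and in young panicles 33 without RFB library 5 and 32 without R998 library 4.

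OsR498G0613109100.01 in young seedlings of WR was the member farthest above its nearer parent there, at 22.7, 60.6 and 46.2 CPM against 13.0, 14.4 and 15.4 in WFB and 12.1, 21.2 and 15.7 in RFB. The WR libraries lay above both parents but far apart from each other. The log2 difference from RFB was 1.42 ± 0.38 (edgeR, adjusted p = 0.021), and the call was lost without RFB library 1 or 3 or WR library 2 or 3 (adjusted p 0.064 to 0.090). OsR498G0613338800.01 was the member farthest below in the same cross, at 4.42, 5.23 and 5.75 CPM against 19.5, 16.3 and 15.5 in WFB and 9.49, 12 and 12.9 in RFB. Its log2 difference from RFB was -1.15 ± 0.20 (adjusted p = 0.00073). In young panicles OsR498G0613345100.01 in RY998 had 6.69, 8.20 and 4.88 CPM, above RFB (2.75, 0.704 and 2.51) and R998 (0.0874, 1.18 and 0.0687), by a log2 of 1.70 ± 0.54 over RFB (adjusted p = 0.015). That call was lost without RFB library 5 or RY998 library 5 (adjusted p 0.055 and 0.084).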

How the data were processed

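Total RNA of 9 rice lines in 3 tissues was sequenced after ribosomal RNA depletion with a stranded method, per the labels' protocols. HISAT2 is named in the submitters' processing notes. How reads were counted, and on which build and annotation, is not stated in these sources. Deposited were unnormalised counts for each gene model and, from the authors, FPKM, used here for abundance alone. Counts were tested in R 4.3.3 with edgeR 4.0.16 (filterByExpr, TMM scaling, quasi-likelihood, Benjamini-Hochberg over all tested genes, threshold 0.05, two-sided), in 1 model of 27 libraries for each tissue and 1 of 81 libraries for tissues. Models with overlapping or near-identical copies are therefore uncertain. Printed CPM use TMM-scaled library sizes over all 81 libraries, whose ratio to the scaling used in the tests of a tissue was 0.976 to 1.02. Intervals and floors cover counting error only. Alternatives were the test and size factors of DESeq2 1.42.0, no filter, the replicate number as a block, other sets of genes or libraries, and leaving out each library. The tests were tried on simulated data. Named members were called, reached 5 CPM, had libraries that did not overlap, and were the 2 with the largest change in each direction. Beyond both parents, the 1 farthest above and the 1 farthest below the nearer parent in each tissue were taken. Named genes outside these rules were chosen after their values were seen. Members, lists and tests were chosen with earlier results of these data known. Same-numbered libraries did not deviate together in the median (correlations of 0.00139, -0.00386 and -0.0241), though single pairs reached 0.523, 0.342 and 0.564. Differently numbered ones had medians of -0.00198, -0.000922 and 0.0136. The numbers were not used as pairs, and whether they mark plots or days is not given in the labels.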

Additional observations from a re-analysis of the deposited data

Results flagged for a closer look

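For 16 pairings of a named member and a tissue, the difference of WY998 from RY998 was not the same as that of WY308 from RY308, by edgeR's quasi-likelihood test of the difference itself (adjusted p under 0.05 over all tested genes). The values are the log2 difference in the R998 crosses minus that in the R308 crosses. Each rests on 3 libraries for each of 4 hybrids. Young panicles had 12.9% of tested members called by this test beside 10.4% of all tested genes. Filling panicles had 22.8% beside 21.8%. Such differences were thus common over the whole table at both panicle stages and not particular to the members. Of the young seedling members the test called 2 (0.483%), beside 0.0917% of all tested genes.

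OsR498G0613162800.01 had -8.35 in young seedlings (adjusted p = 3.7e-08) and -5.98 in filling panicles (2.1e-09). WY998 had no count of it in young seedlings, so the first value depends on the fitting and is no bound. In both tissues WY998 stood at or near 0 while WY308, RY998 and RY308 did not. In young seedlings WY998 and RY998 had means of 0 and 3.81 CPM, and WY308 and RY308 of 3.77 and 8.16. In filling panicles these means were 0.0171 and 3.20, and 2.61 and 6.92. The 2 values of this member thus depend on the log2 scale, on which a level near 0 weighs heavily. OsR498G0613200500.01, with the high and low parents exchanged, had -2.21 in young seedlings (0.0053).

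OsR498G0613338800.01 had -6.67 in young panicles (3.0e-16) and -6.65 in filling panicles (1.9e-08). In young panicles RY308 alone of these 4 hybrids was low, and in filling panicles WY998 and RY308 were both low. OsR498G0613085400.01 had -2.70 in young panicles (5.5e-09), again with RY308 alone low, and OsR498G0613226800.01 had 1.93 there (9.3e-06), with RY308 alone high. OsR498G0613302100.01 had 4.43 in filling panicles (3.0e-12), where WY998 and RY308 were high. OsR498G0613276500.01 had 2.15 in young panicles (0.00084) and 2.03 in filling panicles (1.6e-05).

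Smaller values were found for the other members. In young panicles OsR498G0613243200.01 had -1.04 (0.0048), OsR498G0613126200.01 -0.85 (0.0061), OsR498G0613349200.01 -0.62 (0.0087) and OsR498G0613119800.01 0.48 (0.044). In filling panicles OsR498G0613311100.01 had -1.30 (0.0052) and OsR498G0613332100.01 -0.57 (0.041).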

How the results depend on the processing

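None of the 71 results on members named by the rule changed direction under the alternatives run for them. Outside these, for OsR498G0613162800.01 in young panicles, the log2 difference of WY998 from WFB went from 6.68 to -1.82 without WY998 library 6, and that from R998 from 2.32 to -6.18. Of the counts of called members, 24 of 27 stayed within 1.5 times of their value under every alternative other than leaving out 1 library. The exceptions were WY998 against RY998 in young panicles, with 12 calls by DESeq2's test and 6 by edgeR's, the hybrids of R998 against those of R308 in filling panicles, with 19 calls without the filter on low counts and 34 with it, and members beyond both parents in filling panicles, with 29 and 45. Leaving out 1 library at a time gave counts that moved by more than 1.5 times in these comparisons. In young seedlings the range was 33 to 69 for R998 against R308, 13 to 25 for their hybrids, 8 to 19 for WY998 against RY998 and 13 to 29 beyond both parents. In young panicles it was 100 to 159 for WFB against RFB and 32 to 59 beyond both parents. In filling panicles it was 5 to 10 for the hybrids of WFB against those of RFB, 58 to 111 for R998 against R308, 18 to 49 for their hybrids and 22 to 47 beyond both parents. The cause was not tested. With the replicate number as a block the WFB and RFB hybrids differed in 25, 127 and 7 members and levels beyond both parents were found for 21, 47 and 35. Same-numbered libraries correlated over 0.1 in 27, 21 and 24 of 108 pairs. No such count was made for differently numbered libraries, so these counts cannot decide whether the numbers pair libraries. The block ended 1 call of a named member, OsR498G0613117300.01 in young seedlings (adjusted p = 0.053 by edgeR). Of 1979 alternative values for those 71 results, 1944 kept their call and 35 lost it, all within 7 results. Members near 0 in every library were not tested, and at this depth differences among them were not detectable.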
